A study of Mus musculus with 16 samples.

Results

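The genes described here encode the respiratory chain after complex I: succinate dehydrogenase (complex II), the cytochrome bc1 complex (complex III), the mobile carrier cytochrome c, cytochrome c oxidase (complex IV) and the ATP synthase (complex V). They were taken by name, as every non-control probe whose gene is called Sdha to Sdhd, Uqcr, Cox4 to Cox8, Atp5, Cycs or Cyc1 in the array file or by its current symbol. This gave 51 genes on 70 probes, of 27670 genes and 41174 probes on the array. Of these genes 4 belong to complex II, 9 to complex III, 1 is cytochrome c, 18 belong to complex IV and 17 to complex V. The remaining 2 are no subunits: Emc8, listed in the file as Cox4nb, is part of a membrane protein insertase, and Dmac2l, listed as Atp5s, is a coupling factor relative. Mitochondrially encoded subunits are not matched by the rule.

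The study compared hearts of 12 week old, strain-matched mice with 4 genotypes and 4 arrays each, 1 heart sample an array and 16 arrays in all. The double null hearts lacked both alleles of MuRF1 (Trim63) and of MuRF2 (Trim55), the MuRF1 null MuRF2 het hearts kept 1 functional MuRF2 allele, the MuRF1 het MuRF2 null hearts kept 1 functional MuRF1 allele, and wild type hearts had both genes intact. MuRF1 and MuRF2 are muscle ring finger proteins of the sarcomere, and MuRF1 is a ubiquitin ligase. The labels name no promoter or Cre. Whole hearts were profiled, in which fewer cells of a type and less RNA per cell cannot be told apart. The unit throughout is the log2 of heart signal (Cy5) over that of 1 pooled sample (Cy3) made from whole C57BL/6 pups at postnatal day 1, used on every array. At a value of 1 the heart signal was 2 times the pup signal on the same probe, so ratios of different genes are not levels of those genes.

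Electrons from succinate enter the chain through complex II, whose catalytic subunits Sdha and Sdhb sit on the membrane anchors Sdhc and Sdhd, and complex II is also an enzyme of the citric acid cycle. Complex III passes electrons from ubiquinol to cytochrome c, complex IV passes them on to oxygen, and complex V uses the proton gradient to make ATP. The heart is rich in all of these, and 3 small subunits of complex IV have a form of heart and skeletal muscle (Cox6a2, Cox7a1, Cox8b) beside a form found in most tissues (Cox6a1, Cox7a2, Cox8a).

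Promoter sequences are shown for 4 members: Sdha and Sdhd, complex II genes whose ratios were lower in double null than in MuRF1 het MuRF2 null hearts, and Cox6a1 and Cox7a1, a ubiquitous and a heart isoform. Each runs 5′ to 3′ from 250 bases before to 50 bases after the annotated start, in RefSeq's GRCm38.p6 assembly: chr13:74350191-74350490, minus strand for Sdha, chr9:50603800-50604099, minus strand for Sdhd, chr5:115348909-115349208, minus strand for Cox6a1 and chr7:30183921-30184220, plus strand for Cox7a1. Capitals mark the palindromic core of sites for the nuclear respiratory factor NRF1 and, near the 3′ end of Sdhd, TCAAGGTCA, the site of oestrogen-related receptors, read on the opposite strand.
Sdha: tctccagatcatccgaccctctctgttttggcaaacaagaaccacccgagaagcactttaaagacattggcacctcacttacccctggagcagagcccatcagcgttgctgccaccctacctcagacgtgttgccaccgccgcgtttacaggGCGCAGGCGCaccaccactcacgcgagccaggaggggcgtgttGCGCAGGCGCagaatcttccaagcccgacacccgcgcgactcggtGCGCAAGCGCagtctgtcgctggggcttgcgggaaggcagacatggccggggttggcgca
Sdhd: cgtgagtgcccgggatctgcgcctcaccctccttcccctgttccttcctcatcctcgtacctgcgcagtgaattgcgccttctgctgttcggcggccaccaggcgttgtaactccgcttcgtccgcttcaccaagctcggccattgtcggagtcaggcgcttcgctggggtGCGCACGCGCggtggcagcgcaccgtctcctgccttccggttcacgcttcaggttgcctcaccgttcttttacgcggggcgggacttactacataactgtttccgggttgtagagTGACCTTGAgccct
Cox6a1: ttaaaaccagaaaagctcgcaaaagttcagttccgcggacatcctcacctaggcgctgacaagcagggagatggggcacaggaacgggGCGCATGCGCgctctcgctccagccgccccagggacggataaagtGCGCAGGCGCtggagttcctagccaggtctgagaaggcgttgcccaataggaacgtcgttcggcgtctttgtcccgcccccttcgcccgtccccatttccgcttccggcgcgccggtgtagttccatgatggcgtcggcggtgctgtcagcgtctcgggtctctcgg
Cox7a1: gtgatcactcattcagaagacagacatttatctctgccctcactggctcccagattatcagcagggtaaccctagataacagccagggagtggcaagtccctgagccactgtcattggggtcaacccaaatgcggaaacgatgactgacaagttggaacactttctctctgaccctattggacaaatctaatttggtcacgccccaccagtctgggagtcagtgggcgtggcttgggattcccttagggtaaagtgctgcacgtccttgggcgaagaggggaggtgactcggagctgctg

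Sdha held 3 of the NRF1 letters, Cox6a1 held 2 and Sdhd held 1, while Cox7a1 held none of the motifs searched. RefSeq promoters were found for 38 of the 51 genes. Of these 38, 10 (26.3%) held the NRF1 letters on either strand, against 5.19% of the 27025 genes in the table. The oestrogen-related receptor letters were in 2 members (5.26%), Sdhd and Atp5g3, against 0.466% of all genes. The ETS letters CCGGAAGT were in 4 members (10.5%) against 4.31%, the YY1 letters AAGATGGC in 3 members (7.89%) against 3.19%, and the MEF2 motif in 0 members against 0.514%. The motifs were searched as exact letters, the matches in the printed promoters do not overlap, and a match is a description of the letters and not of binding.

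A member was tested where Cy5 exceeded background clearly for 1 of its probes on 4 or more of the 16 arrays. This held for 48 members, and for the testis forms Cox7b2 and Cox8c and the lung form Cox4i2 it held on 0 arrays, so these 3 have no ratio here. Cox6b2, the testis form of subunit 6b, was above background on 2 double null, 1 MuRF1 null MuRF2 het, 4 MuRF1 het MuRF2 null and 4 wild type arrays, and Emc8 on 3 of 4 double null arrays. All other tested members were above background on all 16 arrays, and none was saturated.

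The arrays differed in brightness. Cy5 was well above background for 6033 to 14500 probes in double null, 6400 to 15064 in MuRF1 null MuRF2 het, 16127 to 17390 in MuRF1 het MuRF2 null and 15171 to 16663 in wild type arrays, and the dimmest were double null 2 and MuRF1 null MuRF2 het 1. Slides 1 and 3 each held 2 double null and 2 wild type arrays. All MuRF1 null MuRF2 het arrays were on slide 2 and all MuRF1 het MuRF2 null arrays on slide 4, with no other group, so for these groups slide and genotype cannot be told apart, and the slide 4 arrays were also read with a later software version. The MuRF1 gene Trim63 had ratios of -1.04 to -0.39 in double null hearts, -0.85 to -0.34 in MuRF1 null MuRF2 het hearts and 1.70 to 2.13 in MuRF1 het MuRF2 null hearts, against 2.51 to 2.71 in wild type hearts. Trim55 did not pass in any comparison, and the sources used here do not say which part of that gene was removed, so its probe checks nothing.

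In double null hearts 6 of the 48 members fell against wild type and 0 rose (limma, adjusted p under 0.05 after Benjamini-Hochberg over 12327 genes). Among all genes tested, 12% fell and 10.1% rose in this comparison, so 6 of 48 is close to the share of all genes that fell. The members that fell were Sdha and Sdhb, the catalytic pair of complex II, Uqcrb of complex III, cytochrome c (Cycs), and Cox6c and Cox7c of complex IV. None of the 17 members of complex V passed with the probe used for each gene, and 10 of the 48 members had an unadjusted p under 0.05. Of all genes 22.2% passed even at an adjusted p under 0.05, so 10 of 48 is not above the share of all genes. The median difference of the 48 members was -0.04, against 0.01 for all genes, with 24 members below 0.

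**Figure D1:**
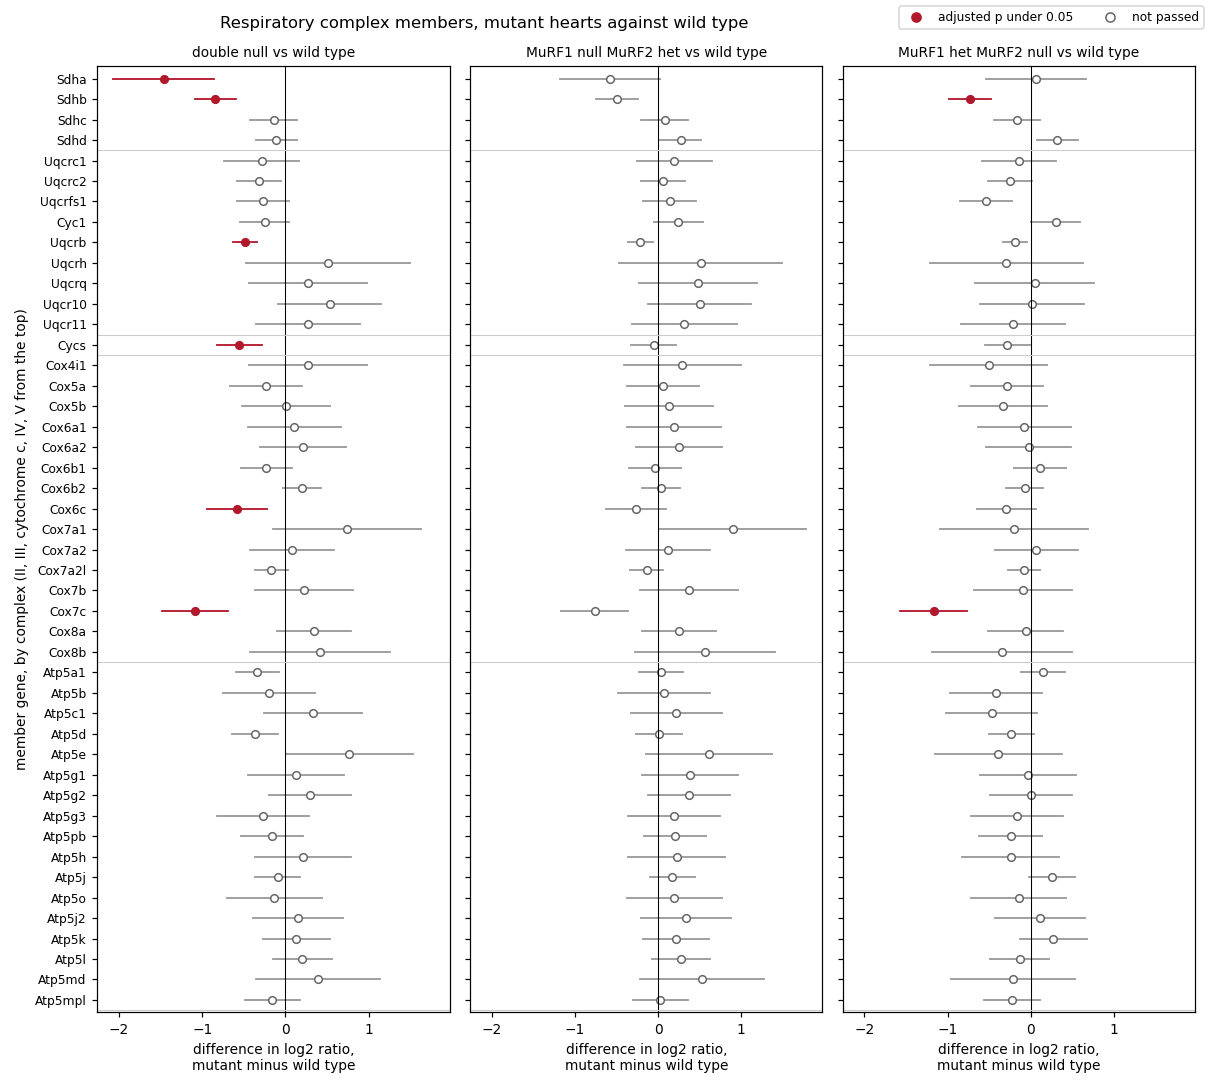
Difference in log2 ratio between each mutant group and wild type hearts (x axis) for the 46 tested subunits (rows, grouped by complex), with 95% confidence intervals from limma as lines and filled red points for an adjusted p under 0.05. Sdha, Sdhb, Uqcrb, Cycs, Cox6c and Cox7c are filled below 0 in double null hearts, Sdhb and Cox7c in MuRF1 het MuRF2 null hearts, and none in MuRF1 null MuRF2 het hearts.

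Sdha, the flavoprotein that oxidises succinate, had log2 ratios of 0.15, -0.03, 0.89 and 0.57 in double null arrays, against 1.38, 1.83, 2.33 and 1.90 in wild type arrays. All double null values lay below all wild type values. The difference was -1.46 ± 0.28 (standard error, n = 4 arrays each), a 2.76-fold fall (limma, adjusted p = 0.00287).

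Sdhb, the iron-sulfur subunit, stood at 1.63, 1.31, 1.25 and 1.25 in double null arrays, against 2.17, 2.28 and 2.15 in wild type arrays 1, 2 and 4, since the spot of wild type 3 was marked irregular and left out. The groups did not overlap, and double null 1 was above the other 3 double null arrays. Sdhb fell by 0.84 ± 0.12 on the log2 scale (1.79-fold, limma adjusted p = 0.000441, n = 4 and 3). It lies on chromosome 4 within 10 Mb of Trim63, the targeted gene, and the part this position has in the difference was not tested.

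The membrane anchors of complex II gave smaller values. Sdhc differed by -0.14 ± 0.13 (adjusted p = 0.447; 95% confidence interval -0.42 to 0.14) and Sdhd by -0.11 ± 0.12 (adjusted p = 0.502; interval -0.36 to 0.13). Neither passed, and both intervals exclude falls of the size of Sdha.

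In complex III, Uqcrb, the small ubiquinone-binding subunit, had ratios of 1.69, 1.75, 1.63 and 1.67 in double null arrays, against 2.12, 2.22, 2.19 and 2.17 in wild type arrays. The values were tight within both groups and did not overlap. Its fall of 0.49 ± 0.07 (1.40-fold, limma adjusted p = 0.000429) had the smallest standard error of the members that fell. The other 8 members of complex III ranged from -0.31 to 0.53 and did not pass, with 4 of them below 0, among them Cyc1, the haem protein cytochrome c1, at -0.25 ± 0.14 (adjusted p = 0.196).

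Cytochrome c itself, Cycs, had ratios of 1.03, 1.54, 1.05 and 1.00 in double null arrays, against 1.62, 1.79, 1.76 and 1.68 in wild type arrays. The dim array double null 2 stood apart from the other 3, but still below wild type. Cycs fell by 0.56 ± 0.13 (1.47-fold, limma adjusted p = 0.00759).

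In complex IV, Cox7c, a small subunit with 1 form in all tissues, had ratios of 1.68, 1.65, 0.97 and 1.27 in double null arrays, against 2.50, 2.53, 2.42 and 2.46 in wild type arrays. Every double null array lay well below the narrow wild type range. Cox7c fell by 1.08 ± 0.19 (2.12-fold, limma adjusted p = 0.00134).

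Cox6c, likewise a small subunit with 1 form, had ratios of 2.07, 2.49, 1.60 and 1.87 in double null arrays, against 2.68, 2.58, 2.52 and 2.58 in wild type arrays. The groups did not overlap, but double null 2 came within reach of wild type. Cox6c fell by 0.58 ± 0.17 (1.50-fold, limma adjusted p = 0.0234), and it no longer passed when double null 3 or 4 or wild type 1 or 2 was left out.

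**Figure D2:**
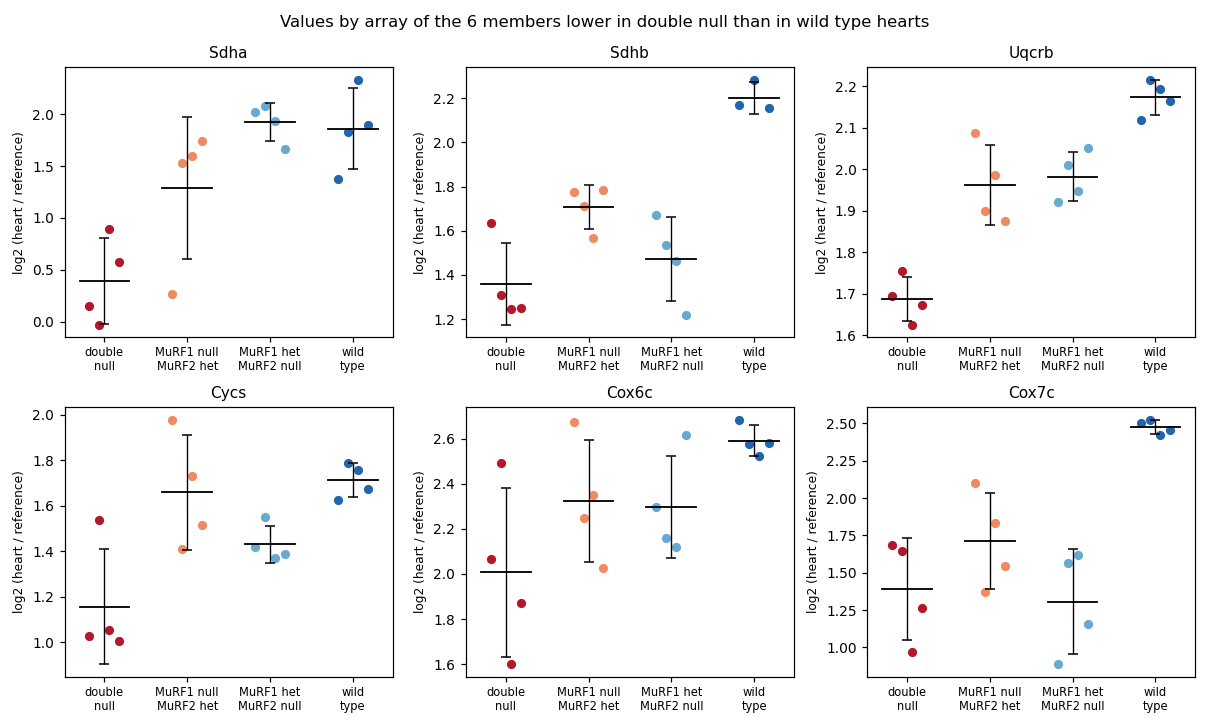
Log2 ratio of heart to pooled pup signal (y axis) by genotype group (x axis) for the 6 members that fell in double null against wild type hearts; points are arrays, bars the group mean, and whiskers its SD. In each panel the double null arrays lie below the wild type arrays, and the Sdhb, Uqcrb and Cox7c values of both other mutant groups and the Cycs values of MuRF1 het MuRF2 null hearts also lie below wild type.

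Among the other members of complex IV named here, none passed in double null against wild type hearts. Cox4i1, the common form of subunit 4, differed by 0.27 ± 0.33 (adjusted p = 0.575), Cox6b1 by -0.23 ± 0.15 (adjusted p = 0.264) and Cox6b2 by 0.20 ± 0.11 (adjusted p = 0.176). Cox7a2l, which helps to join complexes III and IV into supercomplexes, differed by -0.17 ± 0.09 (adjusted p = 0.188). Complex V ranged from -0.37 to 0.77 with 8 of 17 members below 0.

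The choice of normalisation moved these counts. With the ratio that the array software itself gives, 16 members fell in double null against wild type hearts, and with median centring in place of loess 42 fell, while scaling the ratios between arrays left 3; 0 members rose with any of these. Of all genes, 1251 rose and 1483 fell with the values used here, 720 rose and 1445 fell with the software's ratio, and 19 rose and 6867 fell with median centring. The median of all genes moved by these settings, to -0.18 with the software's ratio and to -0.49 with median centring, while the median of the members was -0.17 and -1.55. Sdha, Sdhb and Cox7c passed with each of these 3 settings and in all fits that left out 1 array. Without double null 3, 5 members fell and 4 rose, which were Atp5e (1.08), Cox7a1 (1.17), Uqcr10 (0.78) and Uqcrh (1.09), and these were named after their values were seen. The shares of all genes with scaling between arrays and without double null 3 are not given here.

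Within slides the members moved apart. On slide 1 the median of the members in double null against wild type arrays was 0.26, with 0 members passing on 2 against 2 arrays (18 had an unadjusted p under 0.05, a count not set against all genes), whereas slide 3 gave -0.21, with 16 members passing, all lower. Of all genes 0 passed on slide 1 and 19.3% on slide 3. With slide as a block, 7 members fell and 1, Atp5e, rose (0.77, limma adjusted p = 0.039), and the share of all genes is not given for this fit. The 6 members that fell were chosen from these same arrays, and their double null and wild type values did not overlap. Their differences were thus bound to be negative on both slides, and only the sizes are described. On slide 1 and slide 3 in turn, Sdha was at -1.55 and -1.38, Sdhb at -0.75 and -0.90, Cox7c at -0.85 and -1.32, Uqcrb at -0.44 and -0.53, Cycs at -0.42 and -0.69, and Cox6c at -0.35 and -0.82.

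The complexes were compared by the median of their tested members. In double null against wild type hearts the median difference was -0.49 for complex II (4 members), -0.25 for complex III (9), 0.11 for complex IV (15) and 0.13 for complex V (17). Complex I, taken as 37 genes outside the rule, had a median of -0.11, with 6 genes lower and 2 higher. Complex II was below the wild type mean in all 4 double null arrays, by medians of -0.29, -0.65, -0.61 and -0.54 in arrays 1 to 4. In the same arrays the medians of complex IV were 0.26, 0.73, -0.50 and -0.07, and those of complex V were 0.29, 0.60, -0.51 and -0.20. With the brightest probe of each gene, the double null arrays thus held complexes IV and V on both sides of wild type, and complex II on 1 side. Sdha and Sdhb had fallen without overlap in these same arrays, so the side of complex II was set in part by them. Other probes of Atp5a1 (-0.91), Atp5b (-0.80 and -0.97) and Atp5pb (-0.46) were lower on average in double null than in wild type hearts. Those of Atp5g2 (0.19) and Atp5h (0.26) were higher.

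The medians of complexes III to V, taken with the brightest probe of each gene, moved with the brightness of the array. The dimmest double null array, double null 2, had the highest medians of its group for complexes III, IV and V, and the brightest, double null 3 with 14500 probes above background, had the lowest. Not every probe did so. In double null 2 Atp5b was at 2.90 with its brightest probe and at -0.24, the lowest of its group, with another. Atp5pb was likewise at 2.15, the highest of its group, and at 0.53, the lowest. The other probes of Atp5h (3.03), Uqcrh (2.45) and Uqcrc1 (2.28) were highest in double null 2. MuRF1 null MuRF2 het 1, with 6400 probes, had medians of 0.81, 0.88 and 0.86 for complexes III, IV and V, the highest of all 16 arrays, against -0.26 for complex II. Sdha of complex II was lowest in the dimmest array of each of these groups, double null 2 (-0.03) and MuRF1 null MuRF2 het 1 (0.27). Among double null arrays it was highest in the brightest, double null 3 (0.89). The part of brightness in these differences was not tested beyond 2 fits. With brightness as a covariate the median of the members in double null against wild type hearts was -0.72 and 29 members fell, Sdha not among them (-0.60, adjusted p = 0.122), and without the 2 dimmest arrays it was -0.11 and 15 fell. Of 12327 genes, 559 fell and 468 rose with the covariate, and 1811 fell and 1797 rose without the 2 dimmest arrays.

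**Figure D3:**
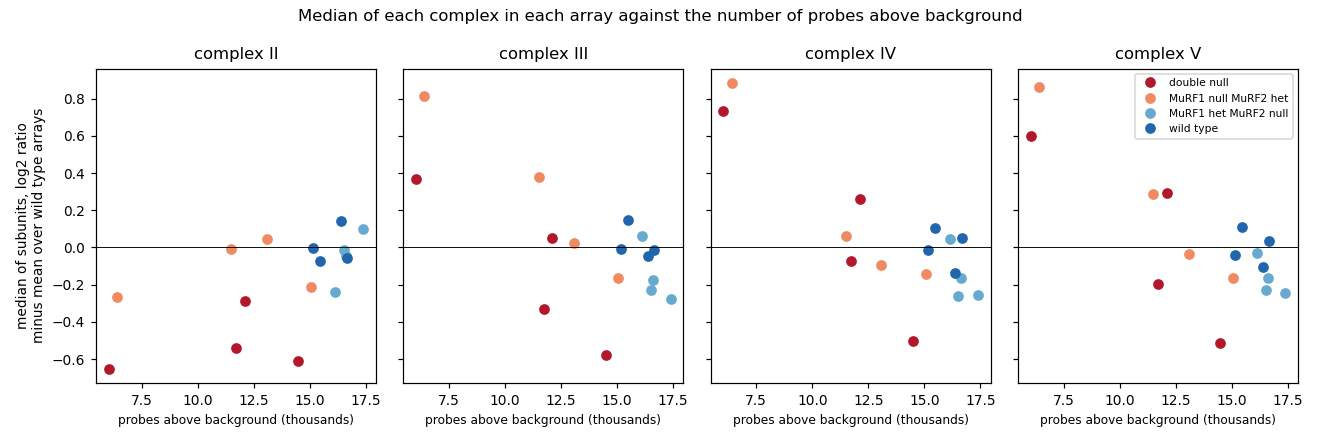
Median log2 ratio of the subunits of complexes II, III, IV and V in each array, minus the mean over wild type arrays (y axis), against the number of probes with Cy5 well above background (x axis); colours are genotype groups. With the brightest probe of each gene, the 2 dimmest arrays, at 6033 and 6400 probes, are the highest for complexes IV and V and lie below 0 for complex II.

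In MuRF1 null MuRF2 het against wild type hearts 0 of 48 members passed (limma), against 1.03% of all genes. An unadjusted p under 0.05 was found for 5 members, and the share of all genes at that threshold is not given here. The median difference was 0.19, and 0.01 without MuRF1 null MuRF2 het 1. Cox7c had ratios of 2.10, 1.37, 1.83 and 1.54 in MuRF1 null MuRF2 het arrays, all below the wild type arrays, and a difference of -0.76 ± 0.19 (adjusted p = 0.0585). Sdhb was at 1.77, 1.71, 1.57 and 1.78, also all below wild type, with a difference of -0.49 ± 0.12 (adjusted p = 0.0553). Sdha was at 0.27, 1.53, 1.60 and 1.75, with the dim array 1 far below the other 3 and the others within the wild type range (-0.58 ± 0.28, adjusted p = 0.234).

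The remaining named members did not pass either in this comparison. Sdhc was at 0.08 ± 0.13, Sdhd at 0.28 ± 0.12, Cyc1 at 0.25 ± 0.14, Cycs at -0.05 ± 0.13, Cox4i1 at 0.29 ± 0.33, Cox6b1 at -0.03 ± 0.15, Cox6b2 at 0.04 ± 0.11 and Cox7a2l at -0.14 ± 0.09 (adjusted p of 0.178 for Sdhd, the smallest of these). With the brightest probe of each gene all 17 members of complex V were above 0, between 0.01 and 0.62, and none passed. Other probes lay below 0, at -0.40 for Atp5a1, -0.28 and -0.33 for Atp5b and -0.16 for Atp5pb. The median of complex V was 0.21, and 0.046 without the dim MuRF1 null MuRF2 het 1.

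In MuRF1 het MuRF2 null against wild type hearts 2 of 48 members fell and 0 rose, against 1.3% and 0.633% of all genes. Cox7c had ratios of 0.89, 1.57, 1.62 and 1.16 in MuRF1 het MuRF2 null arrays, against 2.50, 2.53, 2.42 and 2.46 in wild type arrays. All 4 lay below wild type, and Cox7c fell by 1.17 ± 0.19 (2.25-fold, limma adjusted p = 0.00587; 0.0538 with scaling between arrays). Sdhb had ratios of 1.67, 1.53, 1.46 and 1.22, all below the 3 wild type values of 2.15 to 2.28, and fell by 0.73 ± 0.12 (1.66-fold, limma adjusted p = 0.00608, n = 4 and 3). Neither passed with the ratio of the array software (adjusted p = 0.2 for Sdhb and 0.0728 for Cox7c), Sdhb did not with median centring, and this group lies on a slide of its own.

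Sdha did not pass in these hearts. Its ratios of 2.02, 2.08, 1.93 and 1.66 in MuRF1 het MuRF2 null arrays lay within the wild type range of 1.38 to 2.33, and the difference was 0.06 ± 0.28 (adjusted p = 0.955). Sdhc differed by -0.16 ± 0.13, Sdhd by 0.32 ± 0.12, Cyc1 by 0.30 ± 0.14, Cycs by -0.28 ± 0.13, Cox4i1 by -0.50 ± 0.33, Cox6b1 by 0.11 ± 0.15, Cox6b2 by -0.07 ± 0.11 and Cox7a2l by -0.08 ± 0.09, and none of these passed. The median of the 48 members was -0.16, and 12 of 17 members of complex V were below 0. These comparisons share the wild type arrays, so their differences are not independent of each other.

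Double null hearts were next set against the groups with 1 remaining allele. Against MuRF1 null MuRF2 het hearts 0 of 48 members passed (limma), against 0.349% of all genes, with a median of -0.19. An unadjusted p under 0.05 was found for 11 members, and the share of all genes at that threshold is not given here. Against MuRF1 het MuRF2 null hearts 5 members fell and 2 rose, against 12.7% and 13.7% of all genes. The split was 9 lower and 1 higher with the ratio of the array software, 2 lower and 0 higher with scaling between arrays, and 0 of either with median centring. Without double null 3 it was 5 lower and 11 higher. The shares of all genes with these settings are not given here, so these counts are not results about the members.

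Sdha was again the largest of these, at 0.15, -0.03, 0.89 and 0.57 in double null arrays, against 2.02, 2.08, 1.93 and 1.66 in MuRF1 het MuRF2 null arrays. It fell by 1.53 ± 0.28 (2.89-fold, limma adjusted p = 0.00174). Sdhd, at 0.57, 0.43, 0.41 and 0.45 in double null arrays, against 0.90, 0.91, 0.93 and 0.84 in MuRF1 het MuRF2 null arrays, fell by 0.43 ± 0.12 (adjusted p = 0.014). For both genes the groups did not overlap.

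Cyc1 had ratios of 1.38, 1.06, 0.78 and 1.09 in double null arrays, against 1.52, 1.64, 1.50 and 1.85 in MuRF1 het MuRF2 null arrays, and fell by 0.55 ± 0.14 (limma adjusted p = 0.00969). Uqcrb, at 1.69, 1.75, 1.63 and 1.67 in double null arrays, against 1.92, 2.01, 1.95 and 2.05 in MuRF1 het MuRF2 null arrays, fell by 0.30 ± 0.07 (adjusted p = 0.00605). Neither gene had overlapping groups.

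Atp5a1, the alpha subunit of the F1 head of ATP synthase, was at 0.85, 1.64, 1.18 and 1.08 in double null arrays, against 1.66, 1.75, 1.59 and 1.70 in MuRF1 het MuRF2 null arrays, and fell by 0.49 ± 0.12 (limma adjusted p = 0.00949). With this probe the groups overlapped through the dim array double null 2. With the other probe of Atp5a1 they did not, at 0.98, 1.48, 1.58 and 1.40 in double null arrays, against 2.38, 2.54, 2.38 and 2.42.

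Of the members that rose in this comparison, Atp5e, the epsilon subunit of the F1 stalk, had ratios of 3.21, 3.67, 1.93 and 2.64 in double null arrays, against 1.66, 1.43, 1.80 and 1.93 in MuRF1 het MuRF2 null arrays. It rose by 1.16 ± 0.36 (2.23-fold, limma adjusted p = 0.0273), and it no longer passed without double null 1 or 2 or MuRF1 het MuRF2 null 1 or 2, nor with any other normalisation tried except the one without background correction. Nor did it pass with brightness as a covariate or without the filter on dim probes. Atp5c1, the gamma subunit that turns within the F1 head, was at 2.85, 3.46 and 2.34 in double null arrays 1, 2 and 4, with array 3 marked irregular, against 2.01, 1.99, 2.14 and 2.19 in MuRF1 het MuRF2 null arrays. It rose by 0.80 ± 0.28 (adjusted p = 0.0444, n = 3 and 4) but passed in only 9 of 29 alternatives, and it was at -0.72 with median centring and at -0.23 with brightness as a covariate.

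In MuRF1 null MuRF2 het against MuRF1 het MuRF2 null hearts 1 of 48 members rose and 0 fell, against 4.58% and 3.93% of all genes. This was Uqcrfs1, the Rieske iron-sulfur protein of complex III, at 2.72, 2.15, 2.66 and 2.34 in MuRF1 null MuRF2 het arrays, against 1.66, 1.81, 1.77 and 1.95 in MuRF1 het MuRF2 null arrays. The groups did not overlap. Uqcrfs1 rose by 0.67 ± 0.15 (1.59-fold, limma adjusted p = 0.0162), and it was at -0.22 with median centring. It no longer passed with the software's ratio, the series matrix, median centring, scaling between arrays, the brightness covariate, or without MuRF1 null MuRF2 het 3 or MuRF1 het MuRF2 null 1. Each of these groups lay on its own slide.

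Heart and ubiquitous isoforms were compared within arrays. In wild type hearts the heart and muscle forms had ratios of 3.93 ± 0.21 (Cox6a2), 3.79 ± 0.22 (Cox7a1) and 3.55 ± 0.18 (Cox8b; SD, n = 4), so their signal was far above that of whole newborn pups. The ubiquitous forms had ratios of -1.48 ± 0.09 (Cox6a1), 1.65 ± 0.14 (Cox7a2) and -0.65 ± 0.09 (Cox8a). Cox6a1 and Cox8a thus gave less signal from heart than from pup RNA, and Cox7a2 more.

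Cox6a2 had ratios of 4.26, 4.90, 3.53 and 3.89 in double null, 4.82, 4.03, 3.98 and 3.91 in MuRF1 null MuRF2 het arrays, 3.93, 3.74, 3.89 and 4.07 in MuRF1 het MuRF2 null and 4.13, 4.05, 3.66 and 3.90 in wild type arrays. Cox6a1 had -1.72, -0.47, -1.63 and -1.67 in double null, -0.52, -1.57, -1.28 and -1.77 in MuRF1 null MuRF2 het arrays, -1.39, -1.73, -1.72 and -1.37 in MuRF1 het MuRF2 null and -1.37, -1.55, -1.54 and -1.44 in wild type arrays. Both genes were highest in the 2 dimmest arrays, and the groups overlapped.

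The difference Cox6a2 minus Cox6a1 was 5.97, 5.37, 5.15 and 5.56 in double null, 5.34, 5.60, 5.26 and 5.68 in MuRF1 null MuRF2 het arrays, 5.32, 5.47, 5.61 and 5.44 in MuRF1 het MuRF2 null and 5.50, 5.60, 5.20 and 5.34 in wild type arrays. Against wild type it differed by 0.10, 0.06 and 0.05 in these 3 mutant groups, with two-sided exact permutation p = 0.657, 0.657 and 0.743 (0.771 each after adjustment over the 9 tests of balance described here). The groups overlapped in each comparison.

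Cox7a1 had ratios of 4.96, 5.49, 3.22 and 4.43 in double null, 5.86, 3.88, 4.89 and 4.12 in MuRF1 null MuRF2 het arrays, 3.61, 3.39, 3.50 and 3.87 in MuRF1 het MuRF2 null and 3.99, 3.92, 3.50 and 3.75 in wild type arrays. Cox7a2 had 1.78, 2.34, 1.28 and 1.52 in double null, 2.59, 1.40, 1.66 and 1.44 in MuRF1 null MuRF2 het arrays, 1.75, 1.56, 1.62 and 1.97 in MuRF1 het MuRF2 null and 1.85, 1.60, 1.53 and 1.63 in wild type arrays. Cox7a1 spread over more than 2 log2 units within double null hearts.

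For this pair the balance was set against wild type in the same way. Cox7a1 minus Cox7a2 was 3.17, 3.16, 1.94 and 2.91 in double null, 3.27, 2.48, 3.22 and 2.68 in MuRF1 null MuRF2 het arrays, 1.86, 1.83, 1.88 and 1.90 in MuRF1 het MuRF2 null and 2.14, 2.32, 1.97 and 2.12 in wild type arrays. All 4 MuRF1 null MuRF2 het arrays lay above all wild type arrays and, with this Cox7a2 probe, all 4 MuRF1 het MuRF2 null arrays lay below them, while double null 3 lay below wild type and the other 3 double null arrays above. The differences from wild type were 0.78 for MuRF1 null MuRF2 het hearts and -0.27 for MuRF1 het MuRF2 null hearts, each with a two-sided exact permutation p of 0.0286, the smallest that 70 assignments of 4 against 4 arrays allow. After Benjamini-Hochberg adjustment over the 9 tests of balance each was 0.129. With this floor 6 of the 9 tests would have to reach it for any to pass, so the number of arrays largely set these adjusted values. In double null hearts the difference was 0.66 (exact p = 0.143, adjusted 0.321). The low values of MuRF1 het MuRF2 null hearts depended on the Cox7a2 probe: with the other probe, tried after the data were seen, Cox7a1 minus Cox7a2 was 1.80 to 1.89 in MuRF1 het MuRF2 null arrays and 1.73 to 1.87 in wild type arrays, which overlapped (difference 0.029, two-sided exact permutation p = 0.486). The MuRF1 null MuRF2 het arrays, at 2.19 to 3.06 with that probe, again lay above all wild type arrays (difference 0.89, exact p = 0.0286), and in double null arrays the difference was 0.73 (exact p = 0.0857).

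Cox8b had ratios of 4.61, 4.73, 2.85 and 3.72 in double null, 5.34, 3.41, 4.15 and 3.59 in MuRF1 null MuRF2 het arrays, 3.15, 2.92, 3.22 and 3.55 in MuRF1 het MuRF2 null and 3.75, 3.66, 3.41 and 3.39 in wild type arrays. Cox8a had -0.38, 0.38, -0.63 and -0.58 in double null, 0.27, -0.67, -0.49 and -0.69 in MuRF1 null MuRF2 het arrays, -0.61, -0.85, -0.71 and -0.66 in MuRF1 het MuRF2 null and -0.54, -0.73, -0.72 and -0.60 in wild type arrays. Cox8b minus Cox8a differed from wild type by 0.08 for double null hearts, 0.32 for MuRF1 null MuRF2 het hearts and -0.29 for MuRF1 het MuRF2 null hearts (two-sided exact permutation p = 0.771, 0.286 and 0.114; adjusted 0.771, 0.514 and 0.321). The groups overlapped in each.

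**Figure D4:**
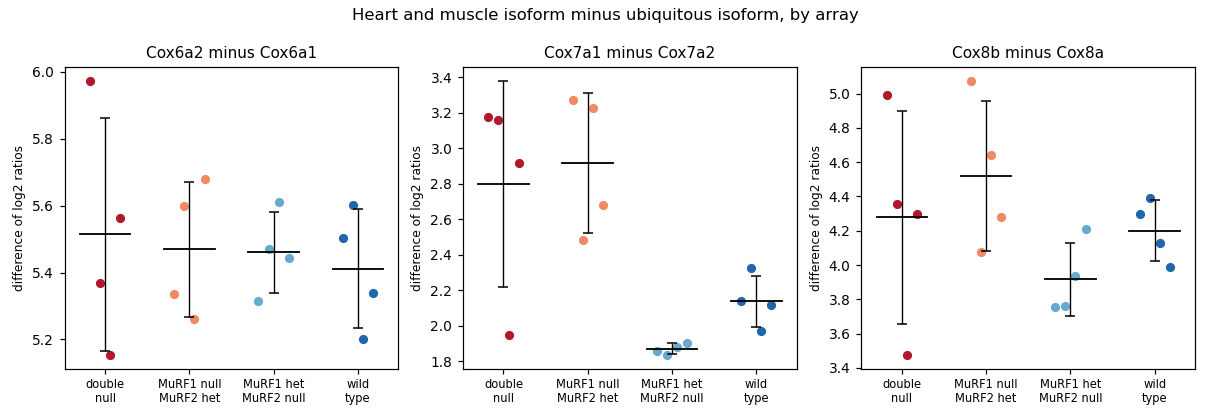
Log2 ratio of the heart and muscle isoform minus that of the ubiquitous isoform in each array (y axis) by genotype group (x axis) for the 3 isoform pairs of complex IV; points are arrays, bars the group mean and whiskers its SD. For Cox7a1 minus Cox7a2 the MuRF1 het MuRF2 null arrays, at 1.83 to 1.90, lie below the wild type arrays with the Cox7a2 probe plotted, but at 1.80 to 1.89 they overlap wild type (1.73 to 1.87) with the other probe. The MuRF1 null MuRF2 het arrays, at 2.48 to 3.27, lie above wild type. These 2 mutant groups each lay on a slide of their own, and the part of brightness was not tested.

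By gene, none of these 6 isoforms passed against wild type in any mutant group. The difference for Cox7a1 was 0.74 ± 0.42 in double null (95% confidence interval -0.15 to 1.63), 0.90 ± 0.42 in MuRF1 null MuRF2 het (0.01 to 1.79, adjusted p = 0.213), and -0.20 ± 0.42 in MuRF1 het MuRF2 null hearts (-1.09 to 0.69), and these wide intervals leave a change of 2-fold possible. For Cox6a2 the interval in double null hearts was -0.30 to 0.72, and for Cox8b it was -0.42 to 1.26. Directions of single isoforms turned with the scaling: with median centring Cox6a2, Cox6a1, Cox7a2, Cox8b and Cox8a were all lower in double null than in wild type hearts.

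Different probes of a gene did not always give the same answer. Each of the 62 member probes above the filter was also fitted on its own among 16806 probes, a step added after the data were seen. In double null against wild type hearts 14 of 62 fell and 0 rose, against 11.9% and 8.93% of all probes. The 3 probes of Cycs all fell, by 0.31 to 0.56. Of the 3 probes of Sdha, 1 gave -1.46 and another -1.34 (adjusted p = 0.00298 and 0.00701), while a probe annotated to a cDNA clone and above background on 4 of 16 arrays gave -0.02.

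For 3 of the 5 ATP synthase genes with more than 1 probe, the probe used, which was the brightest, gave a smaller fall than the others in double null against wild type hearts. Atp5b, the catalytic beta subunit, was at -0.20 ± 0.26 (adjusted p = 0.608) with its brightest probe, and at -0.80 ± 0.20 (adjusted p = 0.0126) and -0.97 ± 0.24 (adjusted p = 0.0102) with the other 2. Atp5a1 was at -0.34 ± 0.12 (adjusted p = 0.0578) and -0.91 ± 0.15 (adjusted p = 0.00116). Atp5pb, the stalk subunit b listed in the file as Atp5f1, was at -0.16 ± 0.18 and -0.46 ± 0.14 (adjusted p = 0.53 and 0.0322). The probes of Atp5g2 (0.29 used, 0.19 other) and of Atp5h (0.21 used, 0.26 other) were above 0. In complex III the probe used also gave a smaller fall for Uqcrc1, a core subunit, at -0.29 ± 0.21 and -0.45 ± 0.11 (adjusted p = 0.338 and 0.0119). For these 4 genes the fall in double null hearts was thus seen with some probes and not with others, and a count of 0 for complex V holds for the brightest probes alone.

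**Figure D5:**
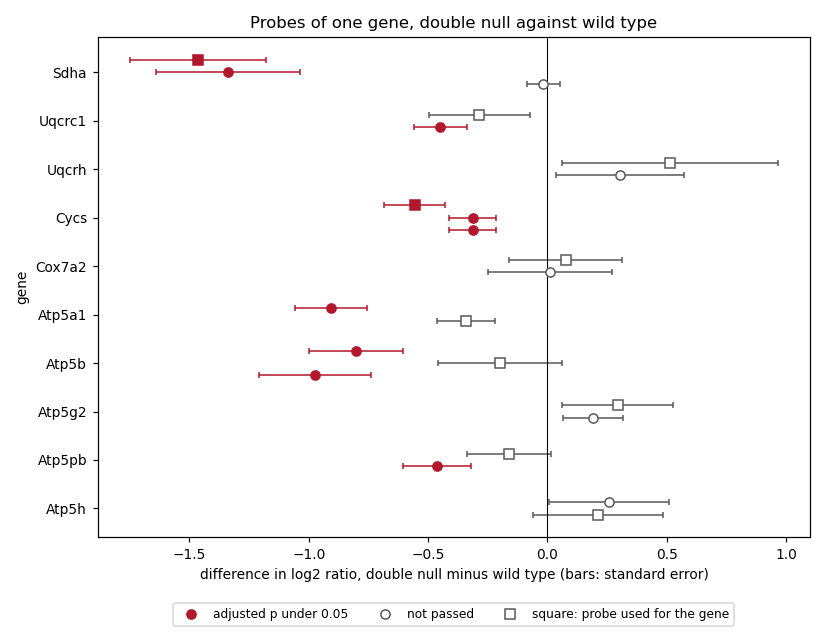
Difference in log2 ratio, double null minus wild type hearts (x axis), for each probe of the subunit genes with more than 1 tested probe (rows); bars are standard errors, squares the probe used for the gene, and filled red points an adjusted p under 0.05 over 16806 probes. The probes of Cycs are all below 0, while those of Atp5a1, Atp5b, Atp5pb and Uqcrc1 are filled for some probes only.

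Genes around the members were described in the same fit. Among 14 tested regulators of respiratory gene expression, 6 fell and 0 rose in double null against wild type hearts: the coactivators Ppargc1a (-0.83 ± 0.19, adjusted p = 0.00769) and Ppargc1b (-0.80 ± 0.14, adjusted p = 0.00123), the nuclear receptors Esrrb (-0.86 ± 0.14, adjusted p = 0.00112) and Ppara (-0.60 ± 0.08, adjusted p = 0.000347), the ETS factor Gabpa and the mitochondrial RNA polymerase Polrmt. Nrf1, which binds the letters shown above, was at -0.00 ± 0.07 (adjusted p = 0.975). By array the median of the regulators from the wild type mean was -0.55 in the dim double null 2 and -0.32 to -0.19 in the other double null arrays. Among 36 tested assembly factors of complexes II to V, 8 fell and 4 rose. Lrpprc, which stabilises mitochondrial messages, fell by 1.43 ± 0.17 (limma adjusted p = 0.000154), Cox10 and Cox15, which make the haem of complex IV, fell by 0.44 each, and Cox19, a copper-handling factor, rose by 1.02 ± 0.14 (adjusted p = 0.0004). Against 12% and 10.1% of all genes, these lists were not tested as sets.

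Marker genes of other cells also moved. In double null against wild type hearts 7 of 8 endothelial markers fell. By array their median from the wild type mean was -0.89 in the dim double null 2 and -0.66 to -0.51 in the other 3, against -0.06 to 0.03 in wild type arrays. Of 8 fibroblast markers 3 rose and 0 fell, with a median difference of 0.57, and by array the median was 1.19 in the dim double null 2 and 0.13 to 0.43 in the other 3. Of 10 cardiomyocyte markers 3 fell (Myh6, Ryr2 and Ckm) and 0 rose, with a median of -0.15. Of the other lists, 2 of 4 smooth muscle markers rose (median 0.48), 1 of 6 adipocyte markers rose (0.63), 1 of 8 skeletal muscle markers rose and 2 fell (0.66), and 0 of 4 red blood cell (0.58) and 0 of 6 macrophage markers (-0.15) passed. By array the smooth muscle, adipocyte and skeletal muscle medians were 0.98, 1.58 and 1.54 in the dim double null 2. In the other 3 double null arrays they were 0.22 to 0.47, 0.09 to 0.42 and 0.10 to 0.45. Ckm is in both the cardiomyocyte and the skeletal muscle list. Of all genes 12% fell and 10.1% rose, and these lists were not tested as sets. The part of these markers in the differences of the respiratory genes was not tested.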

How the data were processed

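Hearts of 16 mice, 4 per genotype as the labels give them, were measured on two-colour Agilent arrays; the labels call the replicates biological. RNA (50 ng) was amplified, per the labels; the labelling text names only Cy3-CTP, and the channel entries (heart Cy5, reference Cy3, no dye swap) were followed. Per the file headers, Feature Extraction 9.1.3.1 (12 arrays) and 9.5.3.1 (4 arrays) gave the deposited spot intensity and a log10 ratio of Cy5 over Cy3. In the series matrix, also deposited, 81.9% of the log2 values lie within 0.05 of the software's ratio centred per probe on its median; its direction was found from the values.

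In R 4.3.3 with limma 3.58.1, intensities were corrected by normexp (offset 50) and loess, irregular spots were left out, spots of a probe were averaged, and probes above background on 4 of 16 arrays with at least 2 values in each group were kept. Each gene took its brightest probe. All 6 comparisons came from 1 fit over 16 arrays, two-sided, with Benjamini-Hochberg values over 12327 genes. Isoform balance was tested by exact permutation over arrays. The fit was tested on simulated data. The number of arrays limits the precision. Symbols and promoters are RefSeq's for GRCm38.p6; the sources used here do not give the array's own build. Values by array are given for members that passed and for the isoform pairs; subunits of complex II, Cyc1, Cycs, Cox4i1, Cox6b1, Cox6b2 and Cox7a2l are named in any case. The members and lists were chosen with earlier results of these data known. Uqcrh lacks 3 irregular spots. Alternatives are given in the closing section.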

Additional observations from a re-analysis of the deposited data

Results flagged for a closer look

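In 102 groups of 4 values of the named members and isoform differences, 6 had 1 array whose gap to the nearest other exceeded Dixon's 95% critical value, which chance gives in about 5% of groups. For Cycs (1.54) and Cox6a1 (-0.47) it was double null 2, the dimmest array of its group. For Sdha (0.27), Cox6a2 (4.82) and Cox6b2 (0.069) it was MuRF1 null MuRF2 het 1, the other dim array. For Sdhb (1.63) it was double null 1.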

How the results depend on the processing

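Counts of members that passed are given for double null, then MuRF1 null MuRF2 het, then MuRF1 het MuRF2 null, each against wild type, then double null against MuRF1 null MuRF2 het, double null against MuRF1 het MuRF2 null, and MuRF1 null MuRF2 het against MuRF1 het MuRF2 null; as reported they were 6, 0, 2, 0, 7 and 1. They were 16, 0, 0, 1, 10 and 1 with the software's ratio and with the series matrix, 42, 41, 2, 0, 0 and 0 with median centring, 3, 0, 1, 0, 2 and 0 with scaling between arrays, 10, 1, 2, 0, 8 and 1 with the mean of probes, 22, 5, 18, 15, 21 and 12 with array weights, 29, 1, 11, 9, 23 and 4 with a covariate for Cy5 brightness, then 15, 1, 6, 5, 12 and 3 without the 2 dimmest arrays, an alternative chosen after seeing the data. In the same order, of all genes 50%, 17.2%, 23.8%, 10.2%, 52% and 25.3% passed with array weights, and for double null against wild type 3 members rose and 19 fell with them, against 3051 and 3117 of all genes. With the covariate 8.33% of all genes passed for double null against wild type and 14.3% for double null against MuRF1 het MuRF2 null. Slide 1 alone gave 0 and slide 3 alone 16 for double null against wild type. Where no share of all genes is given, here or above, a count is not a result about the members. In the same order, median centring gave medians of -1.55, -1.44, -0.82, -0.14, -0.76 and -0.62, and the covariate gave -0.72 and -0.47 for the first pair and -0.43 and -0.20 for the last pair. Leaving out 1 array gave counts of 5 to 10, 0 to 3, 2 to 3, 0 to 2, 5 to 16 and 0 to 8, where double null 2 gave the 10, double null 3 the 16 (11 higher, 5 lower; against wild type 4 higher, 5 lower) and MuRF1 null MuRF2 het 2 the 8, and medians of -0.11 to 0.13, 0.01 to 0.30, -0.23 to -0.12, -0.37 to -0.01, -0.03 to 0.26 and 0.13 to 0.43. Isoform differences then ran, for the 3 mutant groups against wild type, from -0.049 to 0.22, -0.013 to 0.13 and -0.021 to 0.11 (Cox6a2 minus Cox6a1), 0.53 to 0.94, 0.66 to 0.92 and -0.32 to -0.21 (Cox7a1 minus Cox7a2), and -0.16 to 0.35, 0.13 to 0.46 and -0.38 to -0.22 (Cox8b minus Cox8a). With the other Cox7a2 probe, tried after the data were seen, Cox7a1 minus Cox7a2 in MuRF1 het MuRF2 null against wild type was 0.029.

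Signs turned with median centring for Cox6a2 (-1.48), Cox6a1 (-1.72), Cox7a2 (-1.55), Cox8b (-1.16), Cox8a (-1.25) and Cox4i1 (-1.45) in double null against wild type, for Cox6a2 (-1.48), Cox6a1 (-1.70), Cox7a2 (-1.54), Cox8b (-1.07), Cox8a (-1.38) and Cox4i1 (-1.51) in MuRF1 null MuRF2 het against wild type, for Atp5c1 (-0.72) in double null and Uqcrfs1 (-0.22) in MuRF1 null MuRF2 het, both against MuRF1 het MuRF2 null. With the brightness covariate they turned for Cox7a2 (-0.73) and Cox4i1 (-0.89) in double null against wild type and for Atp5c1 (-0.23) in double null against MuRF1 het MuRF2 null. The cause was not tested. Replicate numbers did not pair the arrays (correlations of same-numbered deviations -0.61 to 0.36, 24 pairs), and the replicate block gave 6, 0, 2, 0, 6 and 1.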
